A study of Mus musculus with 4 samples.

Results

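The 8 genes described here are the DNA methyltransferases Dnmt1, Dnmt3a and Dnmt3b, the methyltransferase cofactor Dnmt3l, the methylcytosine dioxygenases Tet1, Tet2 and Tet3, and the thymine DNA glycosylase Tdg. They were chosen by symbol, 8 of the 55453 genes in the count matrices, and each symbol had 1 row in every plate. RNA was measured in wells of 96-well plates from mouse embryos at 2 stages, 2 plates of blastocyst wells and 2 of morula wells. Embryos had been injected with a morpholino, an antisense oligonucleotide used to block a transcript, directed at the homeobox gene Nkx1-2 or with a control morpholino, and each plate held 48 wells of each. The 4 groups were thus NKX1-2 morpholino blastocysts, control morpholino blastocysts, NKX1-2 morpholino morulae and control morpholino morulae, every embryo carrying a morpholino and no group being uninjected. The labels call the source single cell, give no strain, and do not say how many embryos the wells of a plate came from. The title of the study names control of pre-implantation development by NKX1-2, described there as dependent on Wnt signalling, as its subject.

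DNA methylation is the addition of a methyl group to cytosine, mostly where a cytosine is followed by a guanine (CpG). Dnmt3a and Dnmt3b place new marks, Dnmt3l binds them and raises their activity without being able to methylate itself, and Dnmt1 copies marks to the new strand after replication. The Tet enzymes oxidise the mark, Tdg excises oxidised forms, and base excision repair restores a plain cytosine. Methylation falls to its lowest level in the pre-implantation mouse embryo and returns around implantation, and the oocyte supplies much of the Dnmt1 and Tet3 protein on which the early embryo runs.

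Of 384 wells, 368 had at least 2000 detected genes and were used, and the wells of a plate with the same morpholino were added up to a sum, 8 in all, with 1084312 to 2398605 counts each. The median count per well was 22391 to 37602 in the blastocyst sums and 41251 to 48648 in the morula sums. Nkx1-2 itself had no count in any of the 8 sums, so its RNA gave no check of the labels, and 3 counts, the limit that a count of 0 allows, correspond to at most 2.77 counts per 1000000 (CPM). Summed trophectoderm markers, the genes of the outer layer of the blastocyst, stood at 1027 to 1253 CPM in the blastocyst sums and 379 to 426 CPM in the morula sums, with 14 or 15 of 15 markers detected. Summed markers of the inner cell mass, the part that forms the embryo proper, were lower under the NKX1-2 than under the control morpholino on each plate, at 2745 and 2849 CPM in NKX1-2 against 3380 and 3446 CPM in control blastocysts and at 3772 and 3529 CPM in NKX1-2 against 4142 and 4201 CPM in control morulae. Summed oocyte markers stood at 9.22 to 38.6 CPM in the blastocyst sums and 44.2 to 55.6 CPM in the morula sums. Markers of cumulus cells and of fibroblasts summed to at most 3.34 and 5.53 CPM. Wells with counts of Xist and none of the Y-linked genes numbered 35 of 47 under the NKX1-2 and 15 of 43 under the control morpholino on the first blastocyst plate, and 20 of 44 under the NKX1-2 and 6 of 43 under the control morpholino on the second. On the first morula plate they numbered 10 of 48 under the NKX1-2 and 25 of 48 under the control morpholino, and on the second 23 of 47 under the NKX1-2 and 27 of 48 under the control morpholino. None of the 8 genes lies among 344 neighbouring genes that have no count in either morula plate.

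Per kilobase of all annotated exons of a gene, Dnmt3l was the most abundant of the 8 genes in every group. In CPM per kilobase of exon it averaged 32.8 ± 5.61 in NKX1-2 blastocysts, 34.1 ± 1.05 in control blastocysts, 17.7 ± 0.14 in NKX1-2 morulae and 14.9 ± 0.71 in control morulae (SD, n = 2 plates each). On the same scale the order in NKX1-2 blastocysts went on with Tet2 at 5.35 ± 0.75, Dnmt3b at 3.88 ± 0.39, Tet1 at 3.27 ± 0.15, Dnmt1 at 2.10 ± 0.70, Dnmt3a at 1.66 ± 0.12, Tdg at 1.29 ± 0.42 and Tet3 at 0.344 ± 0.066. In control blastocysts it went on with Tet2 at 5.34 ± 1.75, Tet1 at 5.19 ± 1.68, Dnmt3b at 3.80 ± 1.01, Dnmt1 at 2.50 ± 0.52, Tdg at 1.15 ± 0.90, Dnmt3a at 1.00 ± 0.31 and Tet3 at 0.302 ± 0.037. In NKX1-2 blastocysts the neighbours Dnmt1, Dnmt3a and Tdg differed by less than the larger of their SDs. In control blastocysts the same held for Tet2, Tet1 and Dnmt3b and for Tdg and Dnmt3a.

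Morulae had another order below Dnmt3l. In NKX1-2 morulae Tet1 stood at 5.54 ± 0.67 CPM per kilobase, Dnmt3b at 5.05 ± 0.91, Dnmt3a at 3.27 ± 0.37, Dnmt1 at 1.42 ± 0.23, Tet2 at 1.08 ± 0.15 and Tet3 at 0.439 ± 0.192. In control morulae Tet1 stood at 6.69 ± 0.43, Dnmt3b at 5.61 ± 2.21, Dnmt3a at 3.10 ± 0.10, Dnmt1 at 1.79 ± 0.32, Tet2 at 1.09 ± 0.11 and Tet3 at 0.425 ± 0.091. Tet1 and Dnmt3b were not separated by their spread in either morula group, and on this scale Tet2 ranked below Dnmt1 there and above it in blastocysts. Without division by length, Dnmt3l was not the most abundant of the genes in morulae. Tet1 averaged 85.7 CPM in NKX1-2 and 103 CPM in control morulae, against 52.8 and 44.6 CPM for Dnmt3l. Dnmt3a averaged 54.5 CPM in NKX1-2 and 51.6 CPM in control morulae. How evenly reads covered a transcript is not given in the sources used here, so a level per length is only approximate, and wells with fewer cells and cells with less RNA cannot be told apart from a lower level of a gene relative to all others.

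**Figure D1:**
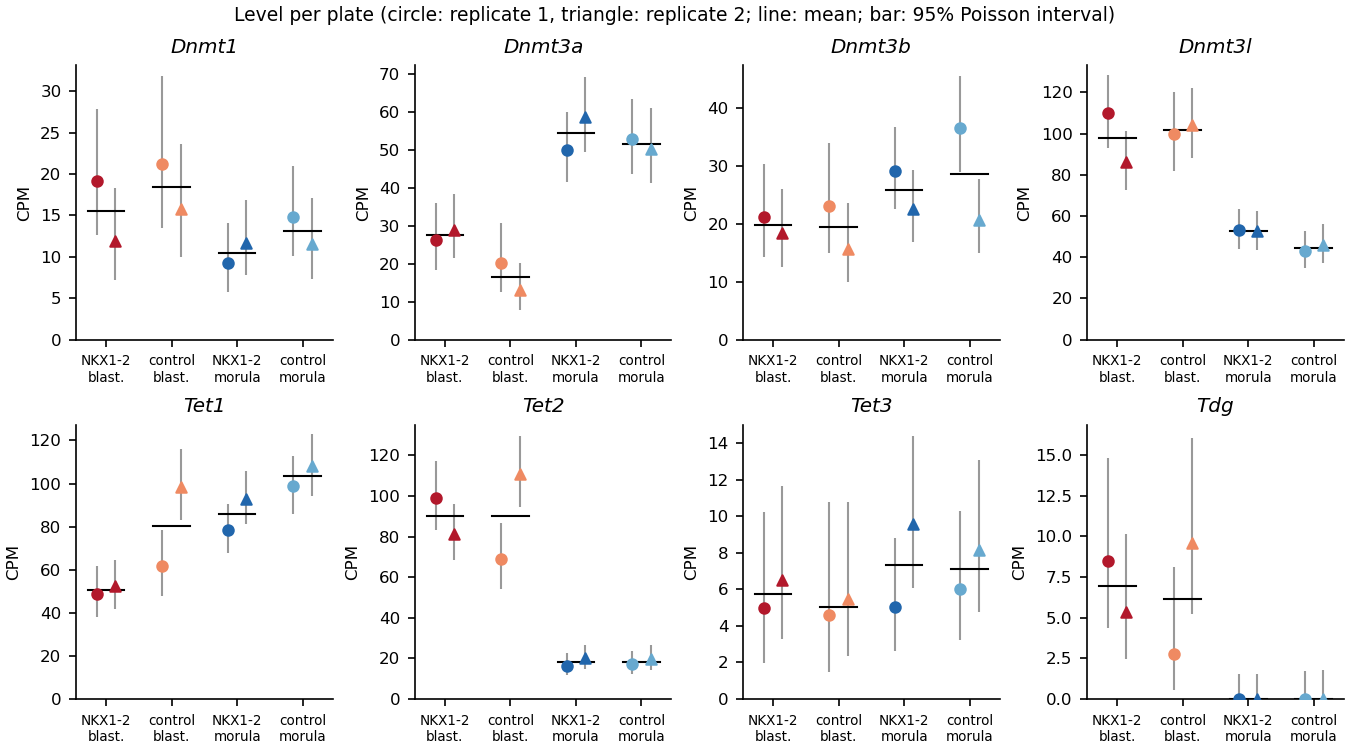
Level of each gene in CPM (vertical axes, linear from 0) in NKX1-2 and control blastocyst wells and in NKX1-2 and control morula wells, with a point per plate, a line at the mean and a bar for the 95% Poisson interval, which covers counting error only. Tet2 and Dnmt3l stand higher in all 4 blastocyst sums than in all 4 morula sums, Dnmt3a stands lower, and Tdg has no count in morula wells.

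Tet2 showed the largest difference between the stages among the 7 genes with counts at both. In NKX1-2 wells it had 99.1 and 81.3 CPM in the blastocyst plates, against 16.4 and 20.01 CPM in the morula plates. In control wells it had 69.2 and 111 CPM in the blastocyst plates, against 17.2 and 19.7 CPM in the morula plates. All 4 blastocyst values lay above all 4 morula values. The log2 fold change of blastocyst over morula was 2.58 ± 0.24 (SE) in NKX1-2 wells and 2.59 ± 0.29 in control wells, or 5.97-fold and 6.04-fold, with adjusted p = 1.4e-07 and 1.67e-07 (edgeR quasi-likelihood test, Benjamini-Hochberg over all genes tested). Levels in CPM are counts over the total of a sum, while fitted fold changes also use a TMM scaling factor per sum. Without that factor the median log2 fold change of all genes between the stages was -0.28 in NKX1-2 and -0.29 in control wells. Ratios and overlaps of CPM between the stages, here and below, therefore set blastocysts lower against morulae than the fits do. Tet2 passed in all 14 alternative settings in both kinds of well. Tet2 lies on chromosome 3, minus strand, at 133463679 to 133545139 of GRCm38.

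Dnmt3l, on chromosome 10 at 78041947 to 78063622, plus strand, was also higher in blastocysts. Under the NKX1-2 morpholino its level was 109.8 and 86.0 CPM in the blastocyst plates, against 53.1 and 52.5 CPM in the morula plates. Under the control morpholino its level was 99.6 and 104 CPM in the blastocyst plates, against 43.1 and 46.1 CPM in the morula plates. The 4 blastocyst values were again all above the 4 morula values, by a log2 fold change of 1.16 ± 0.20 in NKX1-2 wells (adjusted p = 0.000151, edgeR) and of 1.49 ± 0.23 in control wells (adjusted p = 2.1e-05). Dnmt3l passed in all 14 alternatives in both.

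Dnmt3a, on chromosome 12 at 3806007 to 3914443, plus strand, went the other way. Under the NKX1-2 morpholino it had 26.2 and 29.1 CPM in the blastocyst plates, against 50.2 and 58.8 CPM in the morula plates. Under the control morpholino it had 20.3 and 13.0 CPM in the blastocyst plates, against 52.8 and 50.4 CPM in the morula plates. No blastocyst value reached a morula value. In control wells it fell by 1.36 ± 0.32 on the log2 scale (adjusted p = 0.00159, edgeR) and passed in 13 of 14 alternatives. In NKX1-2 wells it fell by 0.69 ± 0.25 (adjusted p = 0.0308), a call that was lost in 5 of 14 alternatives. Among those 5, adjusted p was 0.152 without the second morula plate, 0.174 without the first blastocyst plate and 0.0965 without the second. The first control blastocyst sum rests on 22 counts of Dnmt3a, of which 8 came from a single well.

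The windows upstream of the RefSeq starts of these 3 genes differ in their content of CpG, the pair of bases at which DNA methylation mostly occurs. For each gene 250 bases before a start are shown, from RefSeq on GRCm38.p6, 5′ to 3′ on the gene's strand and free of annotated exons of the gene, with every CpG in capitals. The Tet2 window is chr3:133544391-133544640 (minus strand), the Dnmt3a window is chr12:3806730-3806979 (plus strand) and the Dnmt3l window is chr10:78049592-78049841 (plus strand).
Tet2: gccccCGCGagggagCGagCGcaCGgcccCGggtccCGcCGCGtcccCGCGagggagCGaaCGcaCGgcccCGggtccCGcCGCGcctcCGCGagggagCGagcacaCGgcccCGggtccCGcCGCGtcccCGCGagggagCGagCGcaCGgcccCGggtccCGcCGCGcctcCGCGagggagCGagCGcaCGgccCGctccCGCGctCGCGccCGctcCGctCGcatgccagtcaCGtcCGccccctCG
Dnmt3a: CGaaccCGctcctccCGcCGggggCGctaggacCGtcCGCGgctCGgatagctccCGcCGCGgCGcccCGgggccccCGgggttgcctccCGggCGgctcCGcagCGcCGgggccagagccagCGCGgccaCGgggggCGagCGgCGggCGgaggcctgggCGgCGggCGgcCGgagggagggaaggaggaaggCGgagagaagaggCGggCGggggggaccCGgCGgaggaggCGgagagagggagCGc
Dnmt3l: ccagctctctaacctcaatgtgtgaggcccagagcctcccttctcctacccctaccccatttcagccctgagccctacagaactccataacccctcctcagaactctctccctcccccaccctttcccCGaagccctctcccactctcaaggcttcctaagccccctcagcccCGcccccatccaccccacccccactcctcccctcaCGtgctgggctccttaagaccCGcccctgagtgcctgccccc
The letters CG, which read the same on both strands, occur 51 times in the Tet2 window, 38 times in the Dnmt3a window and 4 times in the Dnmt3l window. Over 32817 distinct windows of the same length upstream of RefSeq starts the median was 6. A share of 0.067% of them had at least as many as the Tet2 window, 1.88% at least as many as the Dnmt3a window and 62.2% at least as many as the Dnmt3l window. The files hold no methylation measurement, and Dnmt3a and Dnmt3l have further annotated starts.

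Tdg (chromosome 10, 82629828 to 82650799, plus strand) had no count in any morula well. Blastocyst wells had 12 and 9 counts of Tdg under the NKX1-2 morpholino, or 8.50 and 5.34 CPM, and 3 and 14 counts under the control morpholino, or 2.77 and 9.58 CPM. Against a floor of 3 counts over both morula plates, the ratio of the blastocyst level of Tdg was 10.8 in NKX1-2 wells and 9.44 in control wells. These ratios allow for no error in the blastocyst counts, so they are not lower bounds. Without the second blastocyst plate, which leaves 3 counts, the ratio to the floor in control wells was 3.91. Over each plate left out in turn the ratio ran between 5.36-fold and 13.5-fold in NKX1-2 wells and between 3.91-fold and 13.5-fold in control wells, and leaving out either morula plate brought it to at most 5.42-fold, since the floor then rests on 1 plate. No test between the stages is given for Tdg, since it could enter one only through its blastocyst counts. Of 8849 genes with at least 30 counts in blastocysts and outside the 344 without morula counts, 31 likewise had none in morulae. Of the 31-base words of Tdg transcripts 47.97% occur in other genes, 37.1% in the pseudogene Tdg-ps (0 or 1 count per sum), and 6.83% of its exonic bases overlap Glt8d2 on the opposite strand. Its value therefore depends on how the authors' counting treated shared reads, and whether this differed between the stages was not tested.

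The remaining 4 genes did not pass between the stages. Dnmt1 (chromosome 9, 20907209 to 20959888, minus strand) had 19.1 and 11.9 CPM in NKX1-2 blastocysts against 9.27 and 11.7 CPM in NKX1-2 morulae, and 21.2 and 15.7 CPM in control blastocysts against 14.8 and 11.5 CPM in control morulae. Its blastocyst values were above the morula values within each morpholino, and the log2 fold changes were 0.82 ± 0.39 in NKX1-2 wells (adjusted p = 0.0903, edgeR) and 0.77 ± 0.38 in control wells (adjusted p = 0.113). Dnmt3b (chromosome 2, 153649450 to 153687730, plus strand) had 21.2 and 18.4 CPM in NKX1-2 blastocysts against 29.1 and 22.5 CPM in NKX1-2 morulae, and 23.1 and 15.7 CPM in control blastocysts against 36.6 and 20.7 CPM in control morulae. The control groups overlapped, and the log2 fold changes of Dnmt3b were -0.10 ± 0.31 in NKX1-2 wells and -0.28 ± 0.36 in control wells. Its transcripts share 13.5% of their 31-base words with its rodent duplicate Dnmt3c, which had 0 to 9 counts per sum.

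Tet1 (chromosome 10, 62804570 to 62908996, minus strand) had 48.9 and 52.2 CPM in NKX1-2 blastocysts against 78.4 and 93.0 CPM in NKX1-2 morulae, and 61.8 and 98.6 CPM in control blastocysts against 98.7 and 108 CPM in control morulae. Its log2 fold change was -0.48 ± 0.21 in NKX1-2 wells (adjusted p = 0.0716, edgeR) and -0.05 ± 0.24 in control wells (adjusted p = 0.872). Adjusted p for NKX1-2 wells became 0.00737 when sums were scaled by total counts, a scaling that moves the median of all genes to -0.28, and 0.0323 with no filter on low counts. Tet3 (chromosome 6, 83362373 to 83459084, minus strand) stayed between 4.61 and 9.59 CPM in every sum, with at most 23 counts, and its log2 fold changes were -0.06 ± 0.49 in NKX1-2 wells and -0.18 ± 0.53 in control wells.

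Between the stages, 3 of the 7 genes with counts at both passed in NKX1-2 wells, 2 higher and 1 lower in blastocysts, where 45.9% of 10221 genes tested passed (21.9% higher, 24.0% lower). In control wells 3 of 7 also passed, 2 higher and 1 lower, where 41.7% of 9577 genes tested passed (20.1% higher, 21.6% lower). Both shares are near those of all genes, so a difference between the stages was common and does not set these genes apart.

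**Figure D2:**
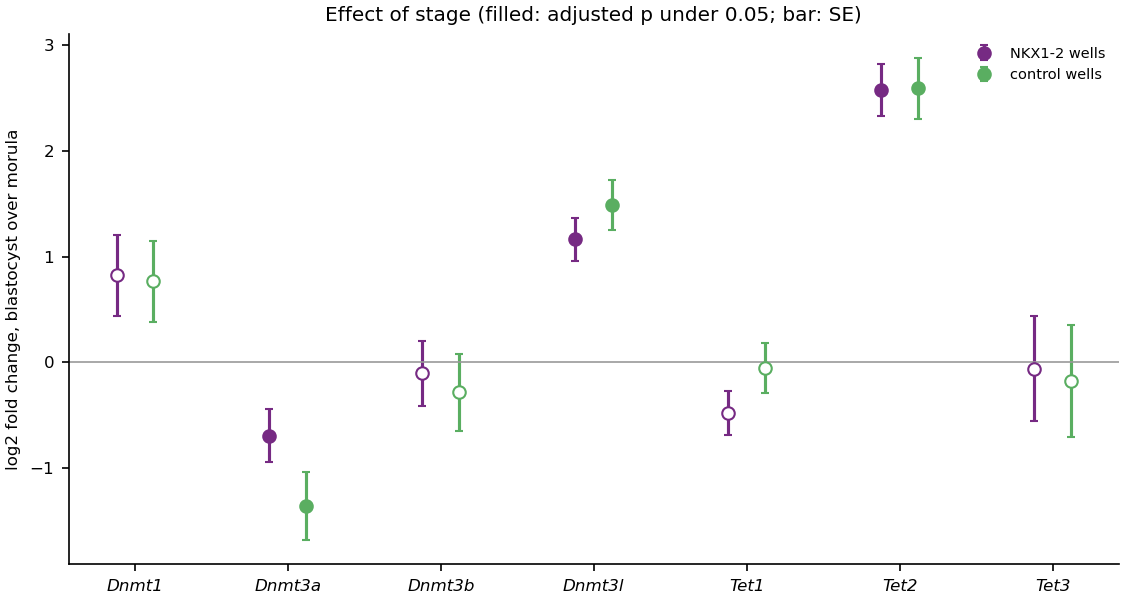
Log2 fold change of blastocyst over morula for each gene with counts at both stages, in NKX1-2 and in control wells (vertical axis), with bars for the SE and filled points for adjusted p under 0.05. Tet2 lies at 2.58 and 2.59 and Dnmt3l at 1.16 and 1.49 in NKX1-2 and control wells, and Dnmt3a lies below 0 in both.

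The make-up of each family differed with stage in every plate. Among the counts of the 3 Tet genes, Tet2 made up 64.8% and 58.1% in NKX1-2 blastocysts, against 16.5% and 16.3% in NKX1-2 morulae. In control wells it made up 51.0% and 51.6% in blastocysts, against 14.1% and 14.5% in morulae. Tet1 held most of the rest, with 31.9% and 37.3% in NKX1-2 blastocysts, 45.6% and 45.9% in control blastocysts, 78.5% and 75.9% in NKX1-2 morulae and 81.0% and 79.5% in control morulae. Tet3 held 2.55% to 7.82%.

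Within blastocysts the share of Tet2 was higher under the NKX1-2 than under the control morpholino on both plates. The exact 95% binomial intervals overlapped on each plate, from 58.0% to 71.2% in NKX1-2 wells and 42.7% to 59.3% in control wells on the first plate, and from 51.5% to 64.4% in NKX1-2 wells and 45.9% to 57.2% in control wells on the second. With 2 plates a group an exact permutation test cannot pass, and none was run. These shares are of counts and not of molecules per length, although Tet1, Tet2 and Tet3 have like exonic lengths of 15457, 16870 and 16695 bases.

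Among the counts of Dnmt3a, Dnmt3b and Dnmt3l, Dnmt3l made up 69.8% and 64.4% in NKX1-2 blastocysts, against 40.1% and 39.3% in NKX1-2 morulae. In control wells it made up 69.7% and 78.4% in blastocysts, against 32.5% and 39.3% in morulae. Dnmt3a made up 16.7% and 21.8% in NKX1-2 blastocysts, against 37.9% and 43.9% in NKX1-2 morulae. In control wells its share was 14.2% and 9.79% in blastocysts, against 39.9% and 43.0% in morulae. The cofactor thus held most counts of this family in every blastocyst sum and at most 40.1% in any morula sum. These shares are not corrected for length, with 2988 exonic bases in Dnmt3l, 16642 in Dnmt3a and 5106 in Dnmt3b. Per kilobase of exon Dnmt3l led the family in morulae as well. In NKX1-2 morulae it stood at 17.7 CPM per kilobase, against 5.05 for Dnmt3b and 3.27 for Dnmt3a. In control morulae it stood at 14.9, against 5.61 for Dnmt3b and 3.10 for Dnmt3a.

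**Figure D3:**
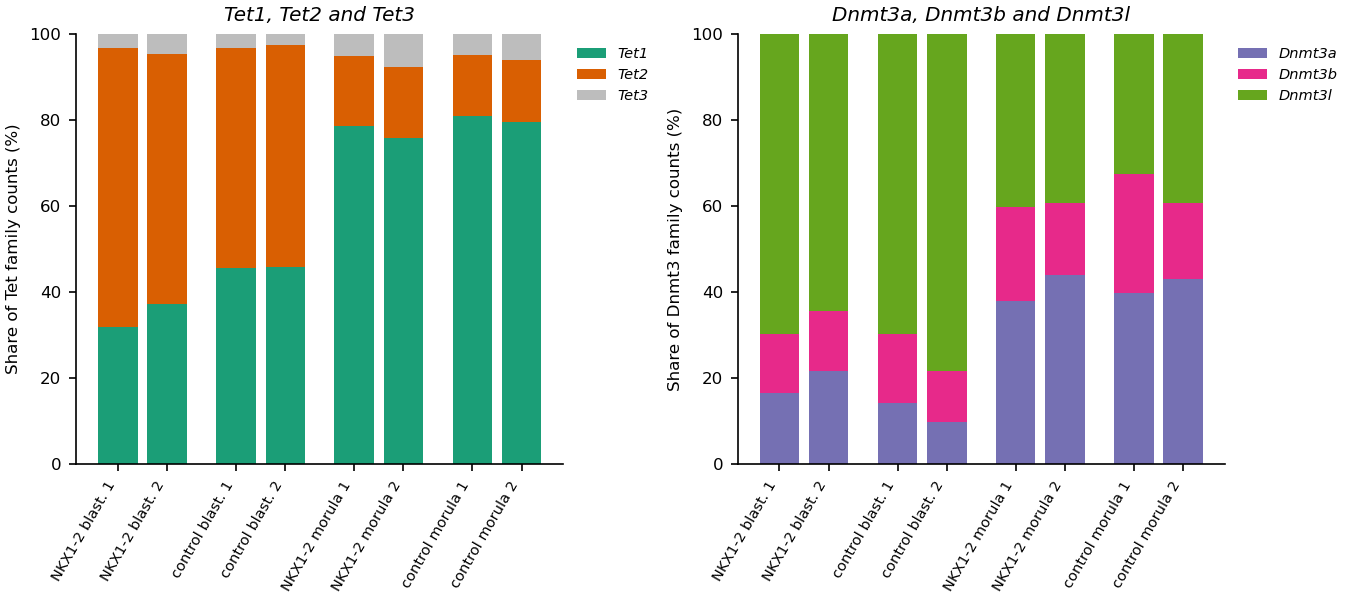
Share of each gene in the summed counts of its family (vertical axis, percent) for each plate and morpholino, for Tet1, Tet2 and Tet3 and for Dnmt3a, Dnmt3b and Dnmt3l. Tet2 takes 51.0% to 64.8% in the blastocyst sums and 14.1% to 16.5% in the morula sums.

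The median well had counts of 3 or 4 of them in the blastocyst sums and of 4 or 5 in the morula sums, and 1 of the 368 wells had none. Wells with a count of Tet2 made up 85.1% and 90.9% in NKX1-2 blastocysts, against 47.9% and 61.7% in NKX1-2 morulae, and 65.1% and 86.0% in control blastocysts, against 37.5% and 47.9% in control morulae. Blastocyst wells were shallower, and with every well brought to 10000 counts the shares were 57.4% and 53.1% in NKX1-2 blastocysts, against 14.2% and 17.8% in NKX1-2 morulae, and 41.4% and 63.0% in control blastocysts, against 13.7% and 15.8% in control morulae. The order of the stages was the same at both depths.

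Wells with a count of Dnmt3a made up 42.6% and 63.6% in NKX1-2 blastocysts, 20.9% and 30.2% in control blastocysts, 91.7% and 89.4% in NKX1-2 morulae and 83.3% on both plates in control morulae. At 10000 counts per well they made up 19.1% and 24.8% in NKX1-2 blastocysts, 13.0% and 11.2% in control blastocysts, 39.2% and 42.7% in NKX1-2 morulae and 41.8% and 38.8% in control morulae. The share of blastocyst wells with Dnmt3a was higher under the NKX1-2 morpholino on both plates and at both depths, with overlapping exact binomial intervals on the first plate (28.3% to 57.8% in NKX1-2 wells, 10.0% to 36.0% in control wells) and separate ones on the second (47.8% to 77.6% in NKX1-2 wells, 17.2% to 46.1% in control wells). Wells of a plate are not replicates, so no test was made.

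For Dnmt3l the order of the stages moved with depth in NKX1-2 wells only. Its share was 80.9% and 81.8% in NKX1-2 blastocysts against 85.4% and 82.98% in NKX1-2 morulae before thinning, and 59.8% and 47.9% in NKX1-2 blastocysts against 38.6% and 36.1% in NKX1-2 morulae at 10000 counts, where its order is that of its CPM. In control wells it was 88.4% on both blastocyst plates against 81.3% on both morula plates before thinning, and 60.9% and 58.8% in blastocysts against 34.1% and 36.8% in morulae at 10000 counts. Tet1 was counted in 62.8% to 90.7% of wells in the blastocyst sums and 87.5% to 93.8% in the morula sums. Dnmt1 was counted in 29.5% to 40.4% of blastocyst wells and 35.4% to 48.9% of morula wells. Dnmt3b was counted in 37.2% to 45.5% of blastocyst wells and 54.2% to 77.1% of morula wells, and Tet3 in 10.6% to 15.9% of blastocyst wells and 22.9% to 38.3% of morula wells. Tdg was counted in 6.98% to 30.2% of blastocyst wells and in 0 of 191 morula wells, which allows a share of up to 1.57% of wells with a count and sets no limit on wells that express it.

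As a measure of stray RNA, 12 genes of other tissues were used, of which 1 to 5 had a count in a sum. The median share of wells over the 12 was 0% in every sum. The most widely counted of them was found in 6.98% to 14.9% of blastocyst wells and 10.4% to 20.8% of morula wells. The shares of Tet3 and Tdg in blastocysts lie partly within that range. They are not read as expression per well, and the shares of Tet3 in morula wells lie just above it. The other 6 genes lie above it in every sum.

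**Figure D4:**
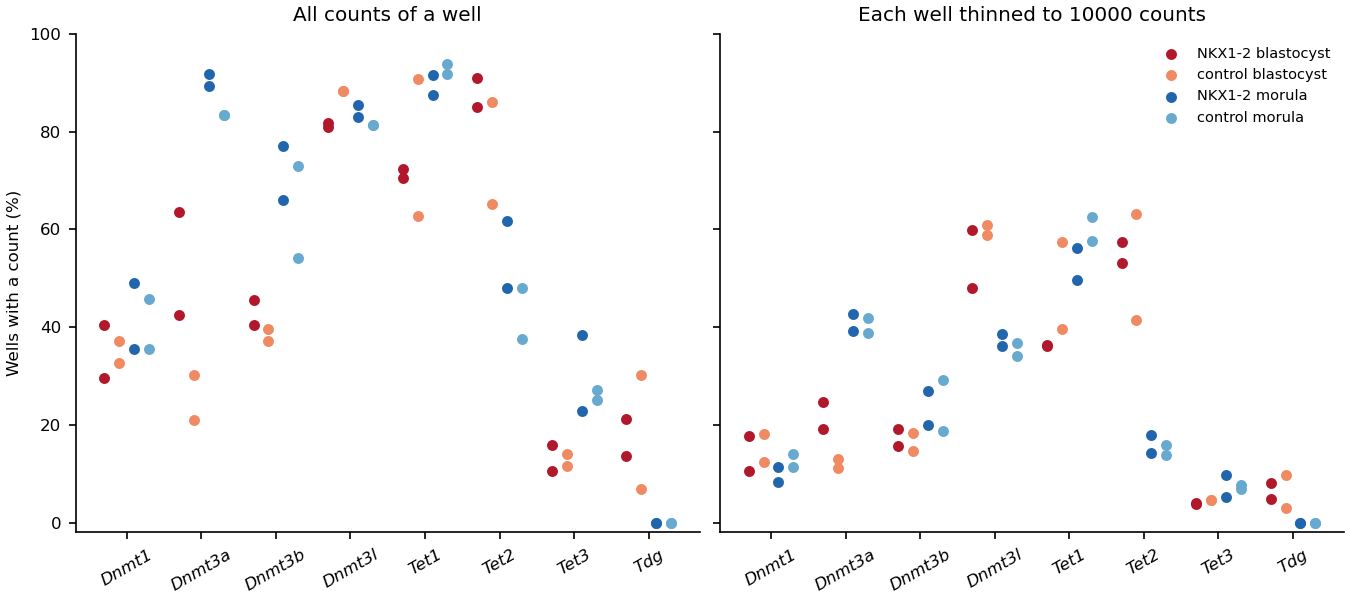
Share of wells with at least 1 count of each gene (vertical axes, percent) per plate, morpholino and stage, as counted and with each well brought to 10000 counts. Tet2 stands higher in blastocyst than in morula wells in both views, and Dnmt3a stands lower.

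Under the NKX1-2 morpholino none of the 8 genes passed in any of the 4 comparisons with the control morpholino. In the morula 0 of 7 passed, with 0.552% of 10873 genes tested passing, and in the blastocyst 0 of 8 passed, with 0.727% passing. For the average of both stages 0 of 7 passed, with 2.90% passing, and for the difference between the stages 0 of 7, with 0.0184% passing. At an unadjusted p under 0.05 in edgeR, 2 of 8 were found in the blastocyst (13.7% of all genes) and 2 of 7 on average (16.6%), in both cases Tet1 and Dnmt3a, and 0 of 7 in the morula (10.7%) and for the difference (6.43%). DESeq2 gave an adjusted p for 5 members in the morula fit and 4 in the blastocyst fit, for 4 in the average and for 7 in the difference, and passed none of these. The median log2 fold change of the tested members was -0.03 in the morula, -7.3e-05 in the blastocyst and -0.03 on average, beside -0.0044, -0.0026 and -0.008 for all genes tested.

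Tet1, which oxidises methylated cytosine and is the main Tet gene of the morula wells, was the nearest to the threshold. Its level was lower under the NKX1-2 morpholino on 4 of 4 plates, at 48.9 and 52.2 CPM in NKX1-2 against 61.8 and 98.6 CPM in control blastocysts and at 78.4 and 93.0 CPM in NKX1-2 against 98.7 and 108 CPM in control morulae. The NKX1-2 and control groups did not overlap at either stage. How many of all genes separate in this way, or keep the same sign on 4 plates, was not counted. Neither trait is therefore read as evidence of an effect, here or for Dnmt3a and Dnmt1 below. The log2 fold change per plate was -0.39 and -0.89 in blastocysts and -0.33 and -0.24 in morulae. On average over the stages it was -0.49 ± 0.13 (SE), with unadjusted p = 0.00185 and adjusted p = 0.0558 (edgeR). The blastocyst value was -0.68 ± 0.20 (adjusted p = 0.132) and the morula value was -0.29 ± 0.17 (adjusted p = 0.598).

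Over 14 alternatives the adjusted p of the average effect on Tet1 ran between 0.00035 and 0.536, and its log2 fold change between -0.82 and -0.35. It passed in 2 of them, with no filter on low counts (adjusted p = 0.0311, edgeR) and without the first blastocyst plate. In the latter setting the log2 fold change was -0.59 on average and -0.90 in the blastocyst, where it also passed. That setting leaves 1 blastocyst plate, and far more of all genes passed in it, as given below. Its calls are therefore not read as support for an effect on Tet1. Wells with Xist and no Y-linked counts, which were more frequent under the NKX1-2 morpholino in blastocysts and less so in morulae, gave -0.82 ± 0.20 for the average effect (adjusted p = 0.0807) when used alone. The summed inner cell mass markers were lower under the NKX1-2 morpholino on the same 4 plates, and their part in the difference of Tet1 was not tested. The difference between the stages in the effect on Tet1 was -0.39 ± 0.26 (adjusted p = 0.868).

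Dnmt3a was higher under the NKX1-2 morpholino in blastocysts, at 26.2 and 29.1 CPM in NKX1-2 against 20.3 and 13.0 CPM in control wells, without overlap. In morulae the groups overlapped, at 50.2 and 58.8 CPM in NKX1-2 against 52.8 and 50.4 CPM in control wells. The log2 fold change in blastocysts was 0.75 ± 0.30 (adjusted p = 0.287, edgeR), with 0.29 and 1.11 on the plates, and in morulae it was 0.06 ± 0.20 (adjusted p = 0.966), with -0.08 and 0.19 on the plates. The average was 0.40 ± 0.18 (adjusted p = 0.277). It passed in only 1 of 14 alternatives, without the first blastocyst plate, at a log2 fold change of 0.62. That setting leaves 1 blastocyst plate, and far more of all genes passed in it. The difference between the stages was 0.69 ± 0.37 (adjusted p = 0.788). The same test compares the decline of Dnmt3a towards the blastocyst in NKX1-2 and in control wells, so the smaller decline in NKX1-2 wells was not told apart from that in control wells.

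Dnmt1 was also lower under the NKX1-2 morpholino on 4 of 4 plates, with log2 fold changes of -0.20 and -0.37 on the blastocyst plates and -0.62 and -0.01 on the morula plates, and its average of -0.32 ± 0.24 did not pass. For the other genes the plates differed in sign. The average log2 fold change was 0.07 ± 0.13 for Dnmt3l, -0.03 ± 0.18 for Tet2, -0.06 ± 0.20 for Dnmt3b and 0.09 ± 0.34 for Tet3. Tet2 stood at 99.1 CPM in NKX1-2 against 69.2 CPM in control wells on the first blastocyst plate and at 81.3 CPM in NKX1-2 against 111 CPM in control wells on the second, so its plates went in opposite directions. Tdg, tested in blastocysts only, had a log2 fold change of 0.08 ± 0.69. These errors leave room for changes of a size that these plates could not show, most of all for Tet3 and Tdg.

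**Figure D5:**
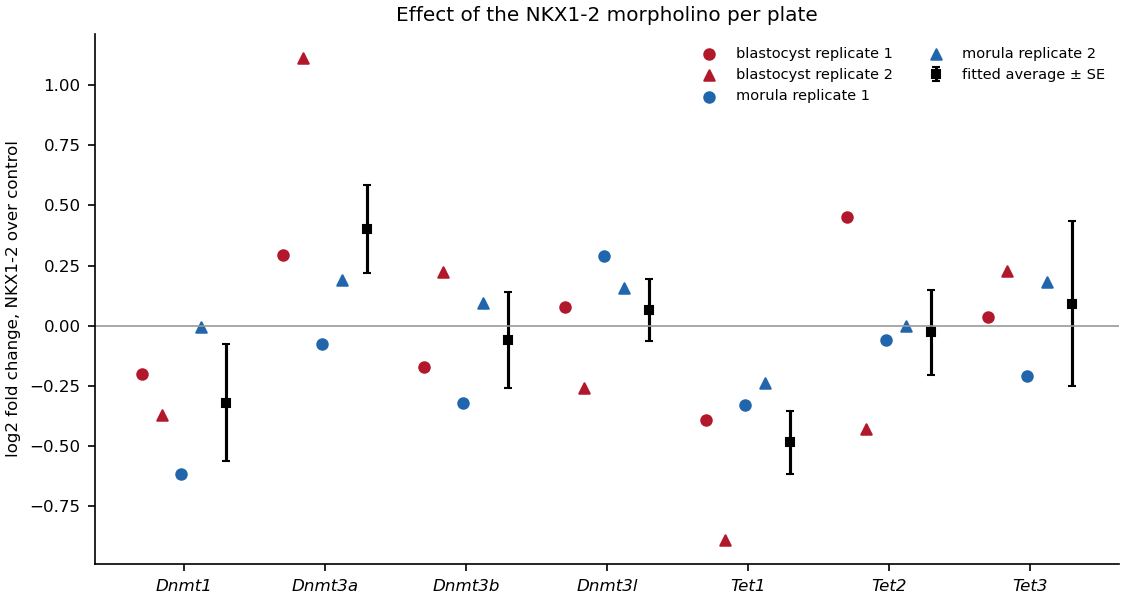
Log2 fold change of the NKX1-2 over the control morpholino on each plate (vertical axis, log2 CPM with a prior count of 2) for the 7 genes with counts at both stages. Tet1 lies below 0 on all 4 plates, between -0.24 and -0.89, and so does Dnmt1, between -0.01 and -0.62.

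Blastocyst wells were grouped into 9 clusters made without the 8 genes and their partner genes. The groups are a description, since their wells come in unequal numbers from the plates and morpholinos. Cluster 1, called trophectoderm-like since 5 of its 10 leading genes were trophectoderm markers, held 28 wells, of which 25 were NKX1-2 wells. The name rests on these leading genes only. Of the inner cell mass markers, Nanog stood in cluster 1 at 73.1 CPM on the first plate and 224 CPM on the second. The second value was above those of the other clusters with a level on that plate. Sox2 stood there at 1.66 and 0 CPM. No cluster had 3 inner cell mass markers among its 10 leading genes, so no inner-cell-mass-like group could be set against cluster 1. Within NKX1-2 wells of the first plate, Tet1 stood at 36.5 CPM in this cluster (95% Poisson interval 22.9 to 55.3) and at 58.0 CPM in the other wells (42.6 to 77.1). On the second plate, with 5 wells in the cluster, it stood at 30.2 CPM (9.80 to 70.5) and 54.6 CPM (43.5 to 67.7). The intervals, which cover counting error only, overlapped on both plates. Cluster 8 held 10 wells, 7 control wells of the first plate and 3 of the second. It had 2 trophectoderm markers among its 10 leading genes and was not given the name. Its summed trophectoderm markers stood at 2676 CPM, above the 2302 CPM of cluster 1, so wells high in these markers were not only NKX1-2 wells. Tet1 stood there at 25.7 CPM on the first plate, from 5 counts.

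Cluster 0 held 36 wells, 35 of them NKX1-2 wells, was led by Gm4240, Obox8 and Tcstv3, and was given no name. Within NKX1-2 wells, Dnmt3l stood at 63.6 CPM inside it (38.3 to 99.3) and 122 CPM outside it (102 to 144) on the first plate, and at 71.4 CPM (55.2 to 90.8) and 104 CPM (82.2 to 129) on the second. The intervals were apart on the first plate only. Dnmt3a stood at 36.8 CPM inside (18.4 to 65.9) and 23.4 CPM outside (15.3 to 34.2) on the first plate, and at 32.5 CPM (21.9 to 46.3) and 24.97 CPM (15.03 to 39.0) on the second, with overlapping intervals.

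Genes that act with the members were followed in 6 lists. Among readers and maintenance factors, Hells, a chromatin remodeller needed for methylation, was higher in blastocysts by 0.66 ± 0.23 on the log2 scale in NKX1-2 wells (adjusted p = 0.0272, edgeR) and 0.82 ± 0.25 in control wells (adjusted p = 0.0121). Mbd3, a subunit of the NuRD repressor, fell by 0.46 ± 0.17 in NKX1-2 wells and by 0.81 ± 0.21 in control wells (adjusted p = 0.0360 and 0.00405). In this list 3 of 7 tested genes rose and 1 fell in NKX1-2 wells, and 2 of 6 rose and 1 fell in control wells, beside the 21.9% higher and 24.0% lower of all genes in NKX1-2 wells and 20.1% higher and 21.6% lower in control wells. With lists of this size such counts set no list apart from all genes, here or below. Uhrf1, which brings Dnmt1 to replicated DNA, is among the 344 genes without morula counts, and 24.2% of its 31-base words occur in other genes. It had 11.3 and 9.49 CPM in NKX1-2 blastocysts, against 6.46 and 23.3 CPM in control blastocysts, and did not pass when the blastocyst plates were fitted alone (adjusted p = 0.772).

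Among genes that guard imprints and methylation, 2 of the 6 with counts at both stages fell in blastocysts in both kinds of well, where 24.0% of all genes fell in NKX1-2 and 21.6% in control wells. In NKX1-2 wells 1 rose, where 21.9% of all genes rose. Ctcfl, the only other gene of the list, had no count in blastocysts. Trim28, a corepressor that keeps imprinted regions methylated, had 186 and 208 CPM in NKX1-2 blastocysts against 743 and 654 CPM in NKX1-2 morulae. In control wells it had 159 and 165 CPM in blastocysts against 765 and 699 CPM in morulae. It fell by 1.54 ± 0.14 in NKX1-2 wells and by 1.88 ± 0.17 in control wells (adjusted p = 1.01e-07 and 7.42e-09, edgeR). Dppa3, which protects the maternal genome from demethylation, fell by 0.40 ± 0.10 in NKX1-2 wells (adjusted p = 0.00314) and by 0.36 ± 0.12 in control wells (adjusted p = 0.0162), with 29.6% of its 31-base words in other genes. Zfp57, which recruits Trim28 to imprints, had 1 to 19 wells with a count per sum and did not pass. With Ctcfl included, the median log2 fold change of this list was 0.28 in NKX1-2 wells and -0.36 in control wells. Without Ctcfl the middle values were 0.28 (Ctcf) and 0.32 (Zfp57) in NKX1-2 wells. In control wells they were -0.36 (Dppa3) and 0.54 (Ctcf), so the negative median there rests on Ctcfl. The median of the readers was 0.05 in NKX1-2 and 0.55 in control wells. For all genes tested it was -0.02 in NKX1-2 and -0.01 in control wells.

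In the base excision repair list 4 of 13 tested genes rose in NKX1-2 wells, and 4 rose and 1 fell in control wells, where 21.9% of all genes rose in NKX1-2 wells, and 20.1% rose and 21.6% fell in control wells. Lig1, a DNA ligase, rose by 1.17 ± 0.24 on the log2 scale in NKX1-2 wells (adjusted p = 0.000674, edgeR) and by 1.15 ± 0.26 in control wells (adjusted p = 0.00121). Apex1 and Fen1, which are 2 of the 4 in each kind of well, had log2 fold changes above 4, but 61.7% and 84.2% of their exonic bases overlap genes on the opposite strand, so their values are uncertain. Of genes that supply the Tet cofactor or bind Tet proteins, 4 of 9 tested rose in NKX1-2 wells and 2 of 10 in control wells, beside 21.9% of all genes in NKX1-2 and 20.1% in control wells, and none fell. The isocitrate dehydrogenases Idh1 and Idh3a rose in both kinds of well, Idh1 by 1.42 ± 0.24 in NKX1-2 and 1.35 ± 0.26 in control wells. Ogt, which binds Tet proteins, rose by 0.69 ± 0.23 in NKX1-2 wells (adjusted p = 0.0187) and had -0.03 ± 0.25 in control wells, and the test of the difference between the stages in the effect of the morpholino gave 0.72 ± 0.27 (adjusted p = 0.642).

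Under the NKX1-2 morpholino few partner genes passed. Of all genes tested, 0.552% passed in the morula, 0.727% in the blastocyst and 2.90% on average. Lig3, the ligase of single-strand break repair, fell by 0.98 ± 0.19 in the morula (adjusted p = 0.0278, edgeR) and by 0.59 ± 0.14 on average (adjusted p = 0.0274), with 25.1% of its exonic bases overlapped on the opposite strand. In the list of the methyl donor cycle, which makes S-adenosylmethionine, Bhmt, which remethylates homocysteine, fell by 0.46 ± 0.09 in the blastocyst (adjusted p = 0.0273) and by 0.32 ± 0.06 on average (adjusted p = 0.0140), with 30.3% of its 31-base words in other genes, and Ahcyl1 rose by 0.86 ± 0.22 on average (adjusted p = 0.0463), 2 of 14 tested. Mat2a, which makes the donor itself, had 0.43 ± 0.13 in the blastocyst (adjusted p = 0.141), with 19.5% of its words in other genes. Of 11 tested germline genes silenced by promoter methylation, Mael rose by 1.11 ± 0.23 on average (adjusted p = 0.0162) and the others did not pass. The median log2 fold change of that list was 0.29 in the morula, 0.56 in the blastocyst and 0.42 on average, beside -0.0044, -0.0026 and -0.008 for all genes tested. Between the stages, 2 of 10 tested germline genes rose in NKX1-2 wells (21.9% of all genes), and 3 of 8 rose (20.1%) and 1 fell (21.6%) in control wells. Those that rose were Sycp3 and Hormad1 in both kinds of well and Tuba3a in control wells. Of the 31-base words of Sycp3, Hormad1 and Tuba3a, 46.5%, 36.3% and 51.5% occur in other genes. For Sycp3, 52.2% of exonic bases overlap genes on the opposite strand, so these values are uncertain. Of 14 tested genes of the methyl donor cycle, 1 rose and 1 fell in NKX1-2 wells, and 2 rose and 1 fell in control wells, below the shares of all genes.

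The genes with the most similar pattern over the 8 sums were found by Pearson's correlation of log2 CPM among 5416 genes of at least 20 CPM, as a description in which stage and shared plates enter. They were Eny2 (r = 0.997), Eif4ebp1 and Lsm1 for Tet2, Rap2b (r = 0.998), Selenok and 1810037I17Rik for Dnmt3l, and Gtf2h3 (r = 0.996), Med14 and Rmc1 for Dnmt3a. For Tet1 they were Eif2b2 (r = 0.939), Tmem11 and Tm2d3, and for Dnmt3b Pabpc4 (r = 0.927), Senp2 and Rrp12. Dnmt1, Tet3 and Tdg had a mean under 20 CPM.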

How the data were processed

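RNA was measured in wells of 4 plates of 96 barcodes, and the morpholino of each barcode was taken from a deposited table that is the same for all plates. The deposited values are whole-number counts per gene and well, without normalization. The names TopHat2, GRCm38 and mm10, with no version or role, come from what is listed per the submitters' processing notes. How reads were assigned to genes, with what tool, by strand or not, and whether molecules were collapsed is not given in the sources used here, so for members and partner genes that share much sequence or overlap others that share is given (31-base words, GENCODE M21, which matched 98.3% of 55453 symbols). The labels' protocols describe polyA capture and TruSeq libraries, while their descriptions name 10x Genomics.

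Wells with under 2000 detected genes were left out (16 of 384). No doublet caller was run, since the content of a well is not given. All 96 barcodes recur on every plate by design, and 0 wells of replicate plates were identical. Counts were summed per plate and morpholino, filtered with filterByExpr, scaled by TMM and tested with robust quasi-likelihood fits (edgeR 4.0.16, limma 3.58.1, R 4.3.3). The morpholino was tested in a joint fit of the 8 sums with a block term per plate, since both morpholinos share each plate, and the stages in separate fits of the 4 NKX1-2 and the 4 control sums. Deviations of the sums that share a plate correlated at 0.353 in the morula and 0.00615 in the blastocyst. Benjamini-Hochberg adjusted p-values under 0.05 over all genes tested passed. The fits were also run on simulated counts whose spread was estimated with a term per plate, and no outcome of those runs is used here. For the stage fits such counts lack the spread between plates, so the runs are no check of their p-values. P-values of the stage fits measure the spread between plates of a stage. Those of the morpholino fits, with a term per plate, measure how the NKX1-2 to control difference varies between plates of a stage. Either spread may be technical. Intervals (95%, exact Poisson or binomial) and floors (3 counts) cover counting error only. The 344 neighbouring genes from U2af1 to V1rg10 without morula counts were left out of fits that hold morula sums.

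For shares of wells, each well was also brought to 10000 counts by its expected detection. Clusters of blastocyst wells were made with scanpy 1.11.5 and Leiden clustering (leidenalg 0.10.2). All 8 members are named throughout, with 9 fixed partner genes, up to 4 further genes per list that passed, by smallest p, and the 3 most similar genes of each member above 20 CPM. The members and lists were chosen with earlier results of these data known. Alternatives were DESeq2 1.42.0, RLE scaling, scaling by total counts (added after seeing the data), other filters on genes and wells, thinned wells, wells with Xist and no Y-linked counts, fits without or with a replicate block, fits of the plates of a stage alone, and each plate left out in turn.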

Additional observations from a re-analysis of the deposited data

How the results depend on the processing

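Of the log2 fold changes of the members under the alternatives, 583 kept their direction or lay on the same side of the threshold as reported, 6 lost a call, 6 gained one and 0 reversed a call. The lost calls were all of Dnmt3a between the stages. In wells with Xist and no Y-linked counts its log2 fold change was -1.27 in control wells (adjusted p = 0.155, edgeR) and -0.86 in NKX1-2 wells (adjusted p = 0.0581), and with DESeq2 it was -0.69 in NKX1-2 wells (adjusted p = 0.144). The calls gained were of Tet1 and Dnmt3a and are given above. Among the members, the count past the threshold was 0 to 1 in the blastocyst when a plate was left out, 1 on average with no filter on low counts and 0 to 2 when a plate was left out. Between the stages in NKX1-2 wells it was 3, with 2 in wells with Xist and no Y-linked counts and 2 to 3 when a plate was left out. The cause of these changes was not tested. Some settings, such as a plate left out, leave fewer counts or sums, and others, such as DESeq2 or scaling by total counts, leave the same sums.

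The number of genes past the threshold, which serves as the background, depended far more on the setting. For the morula it was 60, with 15 by DESeq2, 179 without a filter on low counts, 92 in thinned wells, 8 in wells with Xist and no Y-linked counts, 34 with no replicate block and 834 from the morula plates alone, and 13 to 838 when a plate was left out, the high values coming without a blastocyst plate. For the blastocyst it was 79, with 20, 254, 122, 14, 43 and 130 under the same settings and 99 to 635 when a plate was left out, the highest without a blastocyst plate. For the average effect it was 315, with 60 by DESeq2, 532 without a filter, 36 in wells with Xist and no Y-linked counts, 185 with no replicate block and 92 to 1071 when a plate was left out. For the difference between the stages it was 2, with 1 by DESeq2, 27 without a filter, 1 with every well, 0 in wells with Xist and no Y-linked counts, 1 with no replicate block and 4 to 252 when a plate was left out. In control wells 3993 genes passed between the stages, 2513 by DESeq2, 1602 in wells with Xist and no Y-linked counts and 2586 to 4213 when a plate was left out. In NKX1-2 wells 4690 passed, 2998 by DESeq2, 2684 in wells with Xist and no Y-linked counts and 2266 to 3592 when a plate was left out. With 1 plate left out, the lone plate of a stage is assumed to vary like the others.

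Replicate numbers did not pair the plates of the stages (correlation of deviations -0.0246 in NKX1-2 and 0.0577 in control sums). With a replicate block in the stage fits, 4732 genes passed in NKX1-2 wells and 3691 in control wells, and the calls of the members stayed. Leaving out the block of the morpholino fit changed no call of a member. Depth limits Tet3 and Tdg most, with at most 23 and 14 counts per sum, and shares of wells fell with thinning for every gene.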

Other observations

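Wells with counts of both Tet1 and Tet2 numbered 31 of 47 and 27 of 44 in NKX1-2 blastocysts, 18 of 43 and 33 of 43 in control blastocysts, 21 of 48 and 27 of 47 in NKX1-2 morulae, and 18 of 48 and 21 of 48 in control morulae. Wells with Tet1 and without Tet2 numbered 3 and 4 in NKX1-2 blastocysts, 9 and 6 in control blastocysts, 21 and 16 in NKX1-2 morulae, and 27 and 23 in control morulae. Wells with Tet2 and without Tet1 numbered 9 and 13 in NKX1-2 blastocysts and 10 and 4 in control blastocysts, and at most 2 in any morula sum. Dnmt3c, the rodent duplicate of Dnmt3b known for methylating young transposons in the male germ line of mice, was counted in 0 to 4.26% of blastocyst wells and 4.17% to 17.0% of morula wells, not above the range of stray RNA given for each stage.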
